A study of Mus musculus with 43 samples.

Results

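Marrow cells descended from a JAK2V617F graft were compared with the marrow of mice that had received none. The comparison holds 15 of the 43 libraries of the series: 7 of donor cells, sorted by the CD45.2 form of the surface protein CD45, and 8 of CD45.1 cells from untransplanted wild-type controls, assigned by sample title. JAK2V617F is a single amino acid change in the kinase JAK2. The donor cells came from 5 M (M, 1000000) marrow cells, unsorted, given to wild-type CD45.1 mice without conditioning, so the recipients kept their own blood-forming cells, and all mice were killed about 7 months later. The donor libraries were from 4 male and 3 female recipients, and the control libraries from 4 mice of each sex. Sex is throughout that of the mouse sampled, so for donor cells it is the recipient's and not that of the graft donor. Controls were matched for age and sex, but the age itself, the promoter that drives the mutant allele and the number of graft donors were not given in the sources used here. No mice received normal marrow, so the mutation, the CD45 form with its linked genes, and the act of transplantation cannot be told apart. CD45.1 host cells from the same 7 transplanted mice and CD45.1 CD11b-positive cells from 3 untransplanted mice of a separate cohort served to classify genes. Those 3 mice were killed on the same days as mice labelled 52 weeks after transplantation. The host cells also served for a direct contrast with donor cells.

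For the donor library of mouse N204 the title gives donor cells, while another label gives recipient-derived cells. The summed lymphoid genes defined below took 0.0431 to 0.0611% of the counts in all 7 donor libraries, N204 included, and 0.124 to 0.289% in the 7 host libraries. Most counts that open a section are nevertheless given also without that library. The contrast with host cells, the genes near the CD45 gene and the sex interaction were not examined without it.

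JAK2 carries the signal of the receptors for erythropoietin, thrombopoietin and several myeloid cytokines to STAT transcription factors, and the V617F form signals without the hormone. In mice and patients it is known for overproduction of red cells, platelets and granulocytes. Red cell precursors first switch on the factors GATA1 and KLF1, the erythropoietin receptor and transferrin uptake, then haem enzymes and membrane proteins, and fill with globin last. Granulocyte precursors likewise make the enzymes of primary granules first, those of secondary granules next, and surface receptors and inflammatory mediators at maturity. B and T cells arise from progenitors that leave this myeloid path early.

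Library totals were 16.34 to 19.68 M counts in donor and 15.71 to 18.56 M in control libraries, in which 3 counts correspond to about 0.15 to 0.19 CPM (counts per 1000000 counts). Levels below are CPM after TMM scaling, which equalises the bulk of genes between libraries. Differences are log2 fold changes, donor over control, from edgeR's quasi-likelihood F-test with sex as covariate, and a gene "passed" at a Benjamini-Hochberg adjusted p below 0.05 over all 13906 genes tested. Of these 6360 passed (45.7%), 3163 higher (22.7%) and 3197 lower (23.0%) in donor cells. Without the N204 library the counts were 3277 and 3037. Control N051 stood apart in several measures, with the lowest primary-granule and megakaryocyte shares and the highest mitochondrial (1.54%) and ribosomal protein (5.87%) shares of its group. Red cells had been lysed before sorting, per the labels' protocols, in both groups.

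Promoters of members that the results turn on are shown first. The sequences are from RefSeq on build GRCm38.p6, while the counts were made on GRCm39, and each runs 5′ to 3′ from 250 bases before to 50 after the annotated start. In Pklr, the pyruvate kinase of red cells, and Epor, the erythropoietin receptor, capitals mark AGATAA, a core recognised by GATA factors, and CACCC, a core recognised by KLF factors. In Cish, a feedback inhibitor and classical STAT5 target, capitals mark TTCNNNGAA, the core of STAT sites. Each motif was searched on both strands. The STAT core reads the same on both, and a match of AGATAA cannot overlap a match of CACCC.
Pklr (chr3:89135892-89136191, plus strand): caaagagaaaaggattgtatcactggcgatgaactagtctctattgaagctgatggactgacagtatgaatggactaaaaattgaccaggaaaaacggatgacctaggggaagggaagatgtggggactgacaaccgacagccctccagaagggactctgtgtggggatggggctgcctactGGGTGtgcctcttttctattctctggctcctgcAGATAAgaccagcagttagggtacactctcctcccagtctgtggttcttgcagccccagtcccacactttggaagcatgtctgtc
Epor (chr9:21963527-21963826, minus strand): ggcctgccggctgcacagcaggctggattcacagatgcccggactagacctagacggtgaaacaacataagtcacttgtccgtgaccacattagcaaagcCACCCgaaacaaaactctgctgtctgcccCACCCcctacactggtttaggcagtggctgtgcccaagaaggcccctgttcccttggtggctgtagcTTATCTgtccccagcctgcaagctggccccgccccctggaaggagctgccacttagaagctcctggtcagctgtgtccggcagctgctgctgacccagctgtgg
Cish (chr9:107296409-107296708, plus strand): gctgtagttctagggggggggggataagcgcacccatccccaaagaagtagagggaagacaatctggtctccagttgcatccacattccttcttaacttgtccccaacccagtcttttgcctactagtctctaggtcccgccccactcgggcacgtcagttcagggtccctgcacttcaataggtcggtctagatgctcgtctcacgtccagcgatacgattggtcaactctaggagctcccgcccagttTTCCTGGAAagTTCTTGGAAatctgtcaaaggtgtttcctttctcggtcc
AGATAA was in a promoter of 13 of 33 matched genes (39.4%) of 3 erythroid lists, transcription factors, early erythroid genes and membrane genes, of which 46 were tested, and of 12.7% of all 27025 genes with a promoter in the table. CACCC was in 29 of the 33 (87.9%) and in 59.8% of all genes. TTCNNNGAA was in 3 of the 33 (9.09%) and 9.55% of all genes, and the Cish promoter held 2 copies. Of the genes of these lists that rose in donor cells 18 were matched, with AGATAA in 6 (33.3%), CACCC in all 18 and TTCNNNGAA in 1 (5.56%). The AGATAA share was thus no higher among the genes that rose. A second annotated Pklr promoter, chr3:89136373-89136672, is not shown and held none of these motifs. Such matches are letters in a window and were not tested for binding.

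Lymphoid genes were close to absent from the donor cells. Of 65 tested genes in lists for early B, mature B, plasma, T and NK cells, 62 fell, against 23.0% of all genes, and 1 rose, and the counts of each list were the same without the N204 library. The median member stood at 5.78% of its control level, with a median log2 fold change of -4.11. In 61 of the 65 every donor library lay below every control library, against 9.77% of all genes tested. Together the lists took 0.0503 ± 0.0066% of the counts in donor (SD, n = 7) and 0.405 ± 0.085% in control libraries (SD, n = 8). In bulk libraries fewer cells of a type and less RNA per cell cannot be told apart.

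All 12 early B genes and all 14 mature B genes fell, with medians of -4.40 and -5.30. Rag1, which cuts antigen-receptor genes in B and T precursors, ranged from 0.687 to 7.25 CPM in donor libraries, with a median of 1.99, and from 24.6 to 122.8 in controls, with a median of 65.7. The groups were fully apart (log2 -4.74 ± 0.34 SE, edgeR adjusted p = 6.9e-09). Cd79a, a signalling chain of the B-cell receptor from the pro-B stage on, had donor values of 1.29 to 7.74 CPM (median 3.93) and control values of 65.9 to 188.1 (median 127.6). Mouse N203 had the highest donor level of Ms4a1, the CD20 gene, at 1.68 CPM against a donor median of 0.478 and a control range of 19.0 to 66.2 CPM.

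All 20 T cell genes fell, with a median of -4.21. Themis, needed for thymocyte selection, fell furthest: donor libraries ran from 0 to 0.117 CPM (median 0.0531), at or under the level of 3 counts, and controls from 3.74 to 7.35 (median 4.76). Tcf7, a factor of early T and innate lymphoid cells, kept 8.64% of its control level.

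NK and plasma cell lists held the members that did not follow. Of 12 NK genes 10 fell, with a median of -2.66, among them the NK receptor gene Ncr1, which ran from 0 to 0.418 CPM in donor and from 1.13 to 2.36 in control libraries. Nkg7, a granule membrane protein of cytotoxic cells, rose instead (log2 0.52 ± 0.09 SE, edgeR adjusted p = 1.95e-04), at 111.2 to 160.6 CPM (median 139.6) against 77.6 to 110.9 (median 99.7), with no overlap. Gzmb, a granule protease, was at 4.91 to 17.7 CPM (median 14.6) and 7.73 to 18.02 (median 12.5), and did not pass (log2 -0.07, edgeR adjusted p = 0.83). With these abundant genes counted, the NK list took 0.0178% of counts in donor against 0.0342% in control libraries.
Of 7 plasma cell genes 6 fell, such as Jchain, the joining chain of secreted antibodies, which kept 1.28% of its control level. The seventh, Txndc5, a folding enzyme of the endoplasmic reticulum, was at 115.2 ± 17.1 and 108.1 ± 13.7 CPM (SD, n = 7 and 8) and did not pass (log2 0.10, edgeR adjusted p = 0.434).

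**Figure D1:**
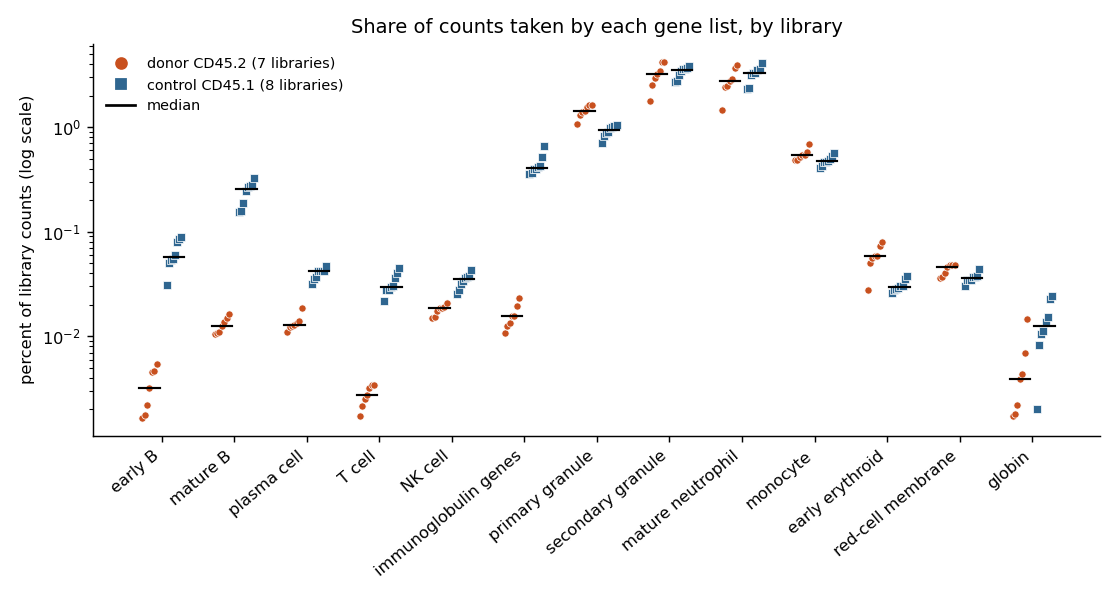
Share of each library's counts taken by the summed genes of each list, in percent on a log scale, for 7 donor (circles) and 8 control libraries (squares), with bars at the medians. Early B, mature B, T and immunoglobulin shares are separate between the groups, whereas secondary-granule and mature-neutrophil shares overlap.

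MHC class II and dendritic cell genes fell less at the median than the lymphoid lists. Of 10 MHC class II genes 9 fell (90%), with a median of -1.43, and of 11 dendritic cell genes 8 fell (72.7%), with a median of -0.89. Of all genes 23.0% fell. Without N204 the counts were 8 and 8. Siglech, of plasmacytoid dendritic cells, was at 5.60 to 15.3 CPM (median 8.07) in donor and 29.9 to 68.2 (median 44.3) in control libraries, without overlap (log2 -2.32 ± 0.17 SE, edgeR adjusted p = 9.47e-09). Cd74, the MHC class II invariant chain, ranged from 231.3 to 696.4 CPM (median 308.9) and from 692.8 to 1373 (median 1166), which overlap slightly (log2 -1.50 ± 0.21 SE, edgeR adjusted p = 1.51e-05).

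To separate the missing lymphoid transcripts from differences among other cells, every tested gene was classed by libraries outside the comparison. The class is the log2 ratio of CPM, with 0.1 CPM added, between CD11b-positive control cells and host CD45.1 cells. CD11b is carried by granulocytes, monocytes and some NK and B cells. Genes at a ratio of 0 or above were called retained (6439 genes), those at -2 or below depleted (1198), and the rest between (6269). Of the lymphoid list members 43 were depleted, 20 between and 2 retained. Of 106 myeloid members 65 were retained and 8 depleted.

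Depleted genes were 8.61% of those tested and held 46.4% of the genes that passed at least 2-fold lower, 488 of 1052. In that class 650 genes fell and 150 rose, with a median log2 of -0.57. In the retained class 1211 fell and 1281 rose, with a median of 0.002, of which 191 and 32 were 2-fold apart or more. Without N204 the depleted class had 647 lower and 145 higher genes and the retained class 1086 and 1369. The between class had 1336 lower and 1732 higher genes, 373 and 97 of them at least 2-fold. Removing all depleted genes and rescaling left the other calls almost as they were: 2940 of 3013 higher and 2545 of 2547 lower calls remained. On TPM plus 1 the retained class had 773 lower genes.

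The class does not sort cell types cleanly, which limits what it separates. Ms4a1, at a ratio of -0.23, was nearly as abundant in the CD11b sort as in host cells, whose mature B list took 0.118% of counts against 0.236% in controls. Bank1, a B-cell scaffold protein, was retained at 0.34 and fell to 9.80% of its control level. Most erythroid members, 39 of 74, were also retained, so the class does not set erythroid genes apart. Among them were Klf1 and Gata1, at 0.780 and 1.58 CPM in host cells scaled with the CD11b libraries.

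**Figure D2:**
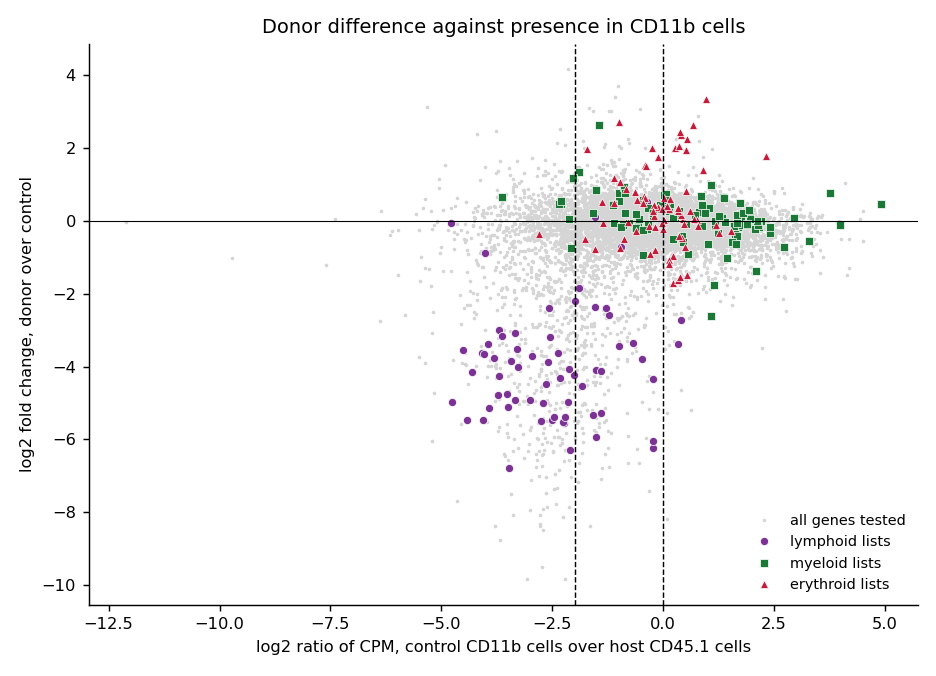
Log2 fold change of each tested gene, donor over control, against its log2 ratio between CD11b-positive control cells and host CD45.1 cells, with list members coloured by lineage and dashed lines at the class limits of -2 and 0. Lymphoid members lie far below 0 and mostly left of the first line, and myeloid and erythroid members scatter around and above 0.

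Early erythroid genes were raised in donor cells. Of 13 tested 12 rose, against 22.7% of all genes, and none fell, with a median log2 of 1.79. This list and all others were chosen with earlier results of these data known, so their counts are descriptions and no independent test. The count was 11 or 12 when any single library was left out, and 12 without that of N204. It was 11 in males alone, 8 in females alone and 8 in a test against a minimum fold of 1.5. A fit with the day of death as block holds only the 10 libraries with a partner of the other group killed on the same day, which leaves out donors N032 and N005 and controls N288, N051 and N093; values of the same 10 libraries without the block are given beside it. In these 11 early erythroid genes rose with the block and 11 without it. The list took 0.0278 to 0.0790% of counts in donor libraries (median 0.0587%) and 0.0259 to 0.0376% in controls (median 0.0294%). The lowest donor value, that of N269, lay within the control range and the other 6 above it.

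Gata1, the factor that sets the red cell and megakaryocyte programme, ran from 3.77 to 12.0 CPM (median 6.41) in donor and from 1.04 to 2.87 (median 1.69) in control libraries. Klf1, which switches on most red cell genes, ran from 2.87 to 10.3 CPM (median 6.08) and from 0.703 to 1.65 (median 1.18). Neither gene overlapped between the groups (log2 2.01 ± 0.27 and 2.24 ± 0.28 SE, edgeR adjusted p = 1.45e-05 and 4.93e-06). Tal1, a partner of GATA1 that is also expressed in stem cells, had 20.8 to 34.6 CPM (median 26.9) against 13.99 to 16.2 (median 15.5), again apart (log2 0.88 ± 0.11 SE). Of 13 erythroid transcription factors 5 rose (38.5%) and 2 fell (15.4%), against 22.7% and 23.0% of all genes, and the median was 0.04. When any one of 8 libraries was left out 1 fell, and in the 10 day-matched libraries 4 fell with the block and 1 without it.

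Pklr, whose promoter is shown above, spanned 3.77 to 15.9 CPM (median 10.9) in donor and 0.496 to 1.77 (median 0.805) in control libraries. Epor was at 1.33 to 6.55 CPM (median 3.81) and 0.234 to 1.76 (median 0.797), overlapping in the lowest donor libraries (log2 1.99 ± 0.37 SE, edgeR adjusted p = 3.35e-04). Car1, carbonic anhydrase 1, an early marker of committed erythroid cells, was at 43.4 to 124.2 CPM (median 91.2) against 8.52 to 20.0 (median 12.96). Atp1b2, a sodium pump subunit, had 6.79 to 23.0 CPM (median 14.02) against 1.04 to 3.08 (median 2.31). Each of these except Epor was fully separate between the groups.

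Membrane genes of red cells divided. Of 20 tested 9 rose (45%, against 22.7% of all genes) and none fell, with a median of 0.36, and 10 rose without N204. Without the donor library of N032 or without control N093 3 fell. In the 10 day-matched libraries, which lack both, 5 fell with the block and 5 without it. Rhag, the Rh-associated ammonia channel, ran from 2.23 to 7.87 CPM (median 5.37) in donor and from 0.234 to 1.81 (median 1.21) in control libraries (log2 2.05 ± 0.33 SE, edgeR adjusted p = 8.2e-05). Ermap, an erythroid adhesion protein, was at 11.6 to 30.9 CPM (median 23.9) against 4.04 to 7.97 (median 5.19). Add2, a subunit of the skeleton protein adducin, spanned 4.46 to 14.1 CPM (median 9.90) and 0.878 to 2.30 (median 1.51). All 3 were separate between the groups.
Slc4a1, the anion exchanger band 3, which appears late, went the other way in value: 2.02 to 48.5 CPM (median 8.32) in donor and 3.81 to 50.4 (median 26.0) in control libraries, overlapping throughout. It did not pass (log2 -1.08 ± 0.54 SE, edgeR adjusted p = 0.112), but passed without the N032 donor library (-1.73, edgeR adjusted p = 0.00503) and without control N093 (-1.33, edgeR adjusted p = 0.0301). In the 10 day-matched libraries, which lack both, it passed with the block (-2.03, edgeR adjusted p = 3.1e-04) and without it (-1.94, edgeR adjusted p = 0.00317).

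Of 11 haem synthesis genes 6 rose (54.5%) and 1 fell (9.09%), against 22.7% and 23.0% of all genes, with a median of 0.32. Without N204 7 rose and 1 fell. The number that fell was 2 without N032, without N093 or in the 10 day-matched libraries, with or without the block. In the latter 6 rose with the block and 4 without it. Cpox, the mitochondrial coproporphyrinogen oxidase, was at 29.7 to 54.1 CPM (median 41.5) in donor and 16.6 to 30.4 (median 24.5) in control libraries, so that the ranges overlapped at their ends (log2 0.80 ± 0.14 SE, edgeR adjusted p = 2.47e-04). Alas2, the erythroid enzyme of the first step, was at 1.01 to 13.4 CPM (median 2.87) against 1.29 to 12.7 (median 7.51). It did not pass (log2 -1.18 ± 0.48 SE, edgeR adjusted p = 0.055), while it did without N032 (-1.76, edgeR adjusted p = 0.00207) or without N093 (-1.44, edgeR adjusted p = 0.00832). In the 10 day-matched libraries it passed with the block (-1.99, edgeR adjusted p = 1.3e-04) and without it (-1.95, edgeR adjusted p = 6.99e-04). Ppox, the one gene that fell, is the mitochondrial oxidase of the penultimate step and expressed in all cells (log2 -0.33 ± 0.07 SE), and it did not pass in males alone (edgeR adjusted p = 0.0551).

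Globins, the last products, were lower in these libraries, made of CD45-sorted cells after lysis of red cells. How many late red cell precursors passed those steps in either group was not tested. The 4 adult globin genes tested of 8 genes listed all passed lower, with a median of -1.58, and so they did without each single library. Hbb-bs, a beta globin, ran from 8.86 to 77.9 CPM (median 19.5) in donor and from 9.37 to 125.8 (median 62.5) in control libraries. The ranges overlap because of 1 library on each side: N032 was the highest donor by far, and control N093 at 9.37 CPM the lowest control. The log2 fold change was -1.54 ± 0.48 SE (edgeR adjusted p = 0.0139), -1.99 without N032 and -1.77 without N093. Hba-a1, an alpha globin, was at 5.36 to 39.6 CPM (median 9.00) against 6.62 to 74.2 (median 38.9; log2 -1.69 ± 0.45 SE, edgeR adjusted p = 0.00497). In males alone, which include both of those libraries, none of the 4 passed, and in females alone all did. Near-identical copies share reads, so single globin genes are uncertain, and their sum took 0.0051% of counts in donor and 0.0135% in control libraries. Of 13 other late erythroid genes 2 rose (15.4%) and 3 fell (23.1%), against 22.7% and 23.0% of all genes. Their median was -0.17, and 6 fell without N032 or N093.

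**Figure D3:**
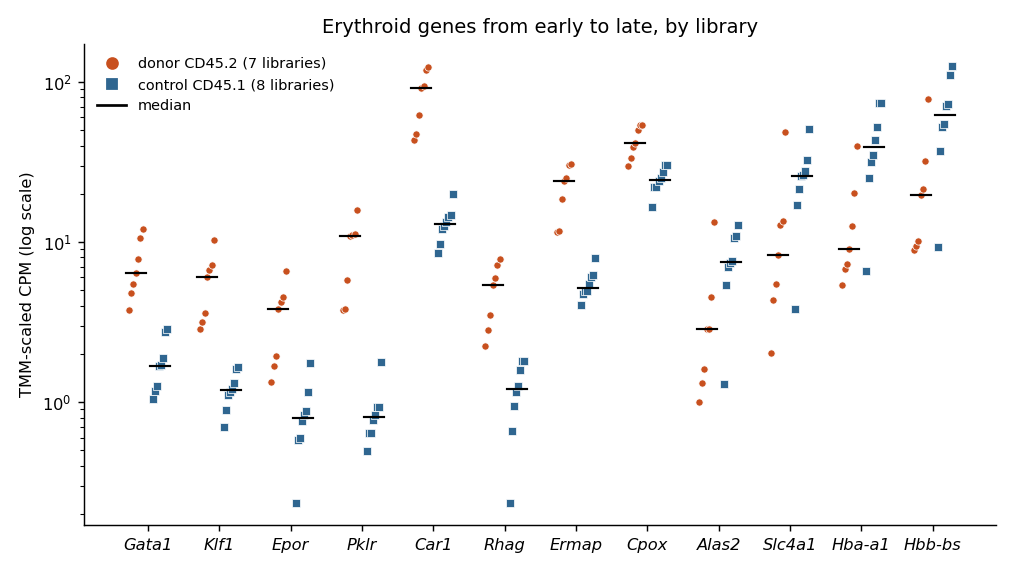
TMM-scaled CPM of 12 erythroid genes, arranged from early to late, on a log scale, with each library as a point (7 donor circles, 8 control squares) and bars at the medians. From Gata1 to Cpox the donor medians are above those of controls, and from Alas2 to Hbb-bs below, with 1 high donor and 1 low control library among the late genes.

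Within granulocyte genes, those of the earliest granules rose. Of 9 primary-granule genes 8 rose (88.9%, against 22.7% of all genes) and none fell, with a median of 0.71. The same count was found without N204, without control N051 and in the 10 day-matched libraries with or without the block. In males alone 6 rose, and 1 did in a test against a minimum fold of 1.5. The list took 1.06 to 1.62% of counts in donor libraries (median 1.42%) and 0.696 to 1.04% in controls (median 0.942%). Mpo, the peroxidase of these granules, was at 5262 to 8315 CPM (median 7179) in donor and 1738 to 5156 (median 4659) in control libraries, with control N051 the low value (log2 0.75 ± 0.16 SE, edgeR adjusted p = 0.00129). In males alone it did not pass (0.80, edgeR adjusted p = 0.064). Prtn3, proteinase 3, was at 1205 to 2097 CPM (median 1785) against 750.3 to 1127 (median 900.5; log2 0.92 ± 0.11 SE, edgeR adjusted p = 3.85e-06). Elane, neutrophil elastase, was at 1687 to 2519 CPM (median 2065) against 1125 to 1632 (median 1416). All 3 were apart between the groups, and all 3 were of the between class, as CD11b-positive cells carried less of them than host marrow.

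Later granulocyte genes mostly did not pass. Of 13 secondary-granule genes, all retained, 1 rose and 1 fell (7.69% each, against 22.7% and 23.0% of all genes), with a median of -0.10. These counts were the same without N204. With the day as block the median was 0.10, with 3 higher, against 1 higher in the same 10 libraries without the block. Ltf, lactoferrin, was at 3457 to 10673 CPM (median 6979) in donor and 4046 to 8546 (median 7815) in control libraries, fully overlapping (log2 0.10 ± 0.21 SE, edgeR adjusted p = 0.723). Camp, the cathelicidin gene, did not pass either (log2 -0.25 ± 0.17 SE, edgeR adjusted p = 0.228). Olfm4, which marks a subset of neutrophils, was the one that fell: 64.7 to 205.0 CPM (median 127.7) against 229.3 to 393.5 (median 322.8), without overlap (log2 -1.38 ± 0.23 SE, edgeR adjusted p = 1.14e-04). Hp, haptoglobin, the one that rose (log2 0.35, edgeR adjusted p = 0.0351), did not pass when any of 7 single libraries was left out, with adjusted p up to 0.118 without the donor library of N269.

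Of 24 mature neutrophil genes 4 fell (16.7%, against 23.0% of all genes) and none rose, with a median of -0.18. With the day as block 5 fell and 2 rose, against 1 and none in the same 10 libraries without it, and without the donor library of N203 7 fell. S100a8, the calprotectin subunit, was at 3432 to 10714 CPM (median 6836) in donor and 5765 to 11153 (median 8265) in control libraries and did not pass (log2 -0.17 ± 0.19 SE, edgeR adjusted p = 0.507). Il1rn, the interleukin-1 receptor antagonist, fell from a median of 106.6 CPM (64.9 to 139.8) to 55.5 (26.5 to 79.8; log2 -1.01 ± 0.19 SE, edgeR adjusted p = 4.31e-04). Fpr1, the formyl peptide receptor, fell by 0.72 on the log2 scale (edgeR adjusted p = 0.00951), with overlapping groups, but did not pass in females alone (-0.57, edgeR adjusted p = 0.126) or in the 10 day-matched libraries without the block (-0.49, edgeR adjusted p = 0.116). The donor library of N005 had the lowest share of both the secondary-granule and mature-neutrophil lists, 1.78% and 1.45% of counts, and without it neither count changed.

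**Figure D4:**
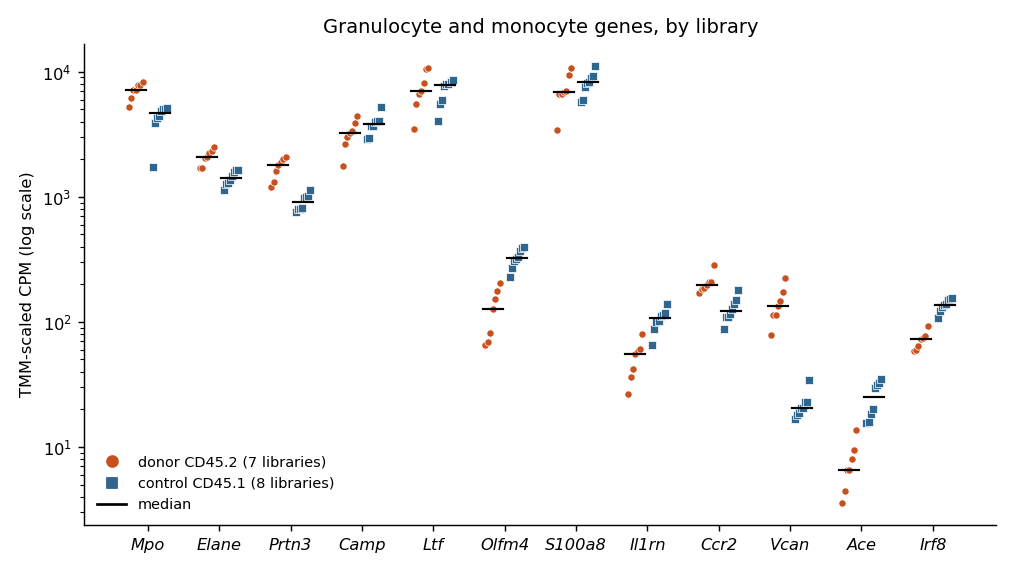
TMM-scaled CPM of 12 granulocyte and monocyte genes on a log scale, with each library as a point (7 donor circles, 8 control squares) and bars at the medians. The primary-granule genes Mpo, Elane and Prtn3 and the monocyte genes Ccr2 and Vcan have higher donor medians, Camp, Ltf and S100a8 overlap, and Olfm4, Ace and Irf8 are lower in every donor library.

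Monocyte genes moved in both directions. Of 18 tested 5 rose and 3 fell (the same without N204), shares of 27.8% and 16.7% that are near those of all genes (22.7% and 23.0%), with a median of 0.13. Vcan, versican, made by classical monocytes, was at 78.6 to 224.1 CPM (median 134.3) in donor and 16.8 to 34.1 (median 20.5) in control libraries (log2 2.64 ± 0.17 SE, edgeR adjusted p = 2.31e-09). Ccr2, the chemokine receptor by which classical monocytes leave the marrow, was at 168.8 to 285.1 CPM (median 196.3) against 88.0 to 180.8 (median 121.7; log2 0.68 ± 0.14 SE, edgeR adjusted p = 6e-04). The 3 that fell are known from nonclassical monocytes, while Cx3cr1 and Cd300e, known from the same cells, did not pass (log2 -0.08 and -0.11, edgeR adjusted p = 0.691 and 0.814). Ace, angiotensin-converting enzyme, was at 3.55 to 13.7 CPM (median 6.53) against 15.4 to 34.8 (median 24.9), without overlap (log2 -1.75 ± 0.26 SE, edgeR adjusted p = 3.95e-05). Nr4a1, the factor that nonclassical monocytes require and an immediate-early gene, was at 445.8 to 665.7 CPM (median 511.9) against 769.6 to 1092 (median 889.9; log2 -0.76 ± 0.09 SE). Treml4 fell by 0.64 (edgeR adjusted p = 3.16e-04). Of 13 immediate-early genes, which rise within minutes of handling cells, 7 fell and none rose. They took 0.408 to 0.500% of counts in donor and 0.526 to 0.717% in control libraries, and their part in the result for Nr4a1 was not tested.

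Of 11 myeloid transcription factors 2 rose (18.2%), 3 fell (27.3%) and 6 did not pass, against 22.7% higher and 23.0% lower of all genes. These counts were the same without N204, with 1 higher without N269. In the 10 day-matched libraries 4 rose with the block and 3 without it. Irf8, which directs progenitors to monocytes and dendritic cells and is also expressed in B cells, was at 58.0 to 92.5 CPM (median 72.3) in donor and 106.8 to 155.7 (median 137.6) in control libraries (log2 -0.94 ± 0.10 SE, edgeR adjusted p = 1.17e-06). Cebpa, the factor of granulocyte-monocyte progenitors, was at 79.8 to 109.1 CPM (median 92.8) against 66.4 to 93.1 (median 74.9; log2 0.33 ± 0.08 SE, edgeR adjusted p = 0.00304), and did not pass in females alone (0.27, edgeR adjusted p = 0.136). Cebpe, which drives secondary-granule genes, passed at a log2 of 0.28 (edgeR adjusted p = 0.0236) but not without the donor library of N269 (0.22, edgeR adjusted p = 0.0695).

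Other myeloid lists moved in part. Of 9 eosinophil genes 5 rose (55.6%) and 2 fell (22.2%), against 22.7% and 23.0% of all genes, with a median of 0.47. The counts were 4 and 2 without N204, while 1 rose in females alone and 3 in males alone. Epx, eosinophil peroxidase, was at 42.2 to 83.2 CPM (median 57.3) against 14.5 to 53.6 (median 31.6; log2 0.98 ± 0.22 SE, edgeR adjusted p = 0.00151), overlapping in part, and did not pass in females alone (0.29, edgeR adjusted p = 0.222). Il5ra, the receptor chain for the eosinophil cytokine, which B-1 cells also carry, was at 0.370 to 0.841 CPM (median 0.637) against 2.26 to 5.67 (median 4.18), without overlap (log2 -2.61 ± 0.22 SE). Of 10 megakaryocyte genes tested 2 rose (20%) and 3 fell (30%), against 22.7% and 23.0% of all genes, with a median of 0.004. Selp, P-selectin, was at 15.9 to 36.1 CPM (median 25.2) against 8.38 to 13.9 (median 10.6; log2 1.27 ± 0.13 SE), whereas Pf4, platelet factor 4, at 5.86 ± 2.35 and 5.85 ± 1.45 CPM (SD, n = 7 and 8), did not pass. Of 13 macrophage genes 4 rose (30.8%, against 22.7% of all genes) and none fell. Among those that rose was C1qa at 0.371 to 4.55 CPM (median 1.16) against 0.329 to 0.955 (median 0.648), overlapping in part (log2 1.34 ± 0.37 SE, edgeR adjusted p = 0.00713). In females alone C1qa did not pass (0.26, edgeR adjusted p = 0.706). Of 7 tested stromal and endothelial genes, which the CD45 gate should leave out, 1 rose and 4 fell, the latter 2 when any one of donors N204 and N032 and controls N208, N288, N051 and N002 was left out, and the list took 0.0014% of counts in donor and 0.0017% in control libraries.

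**Figure D5:**
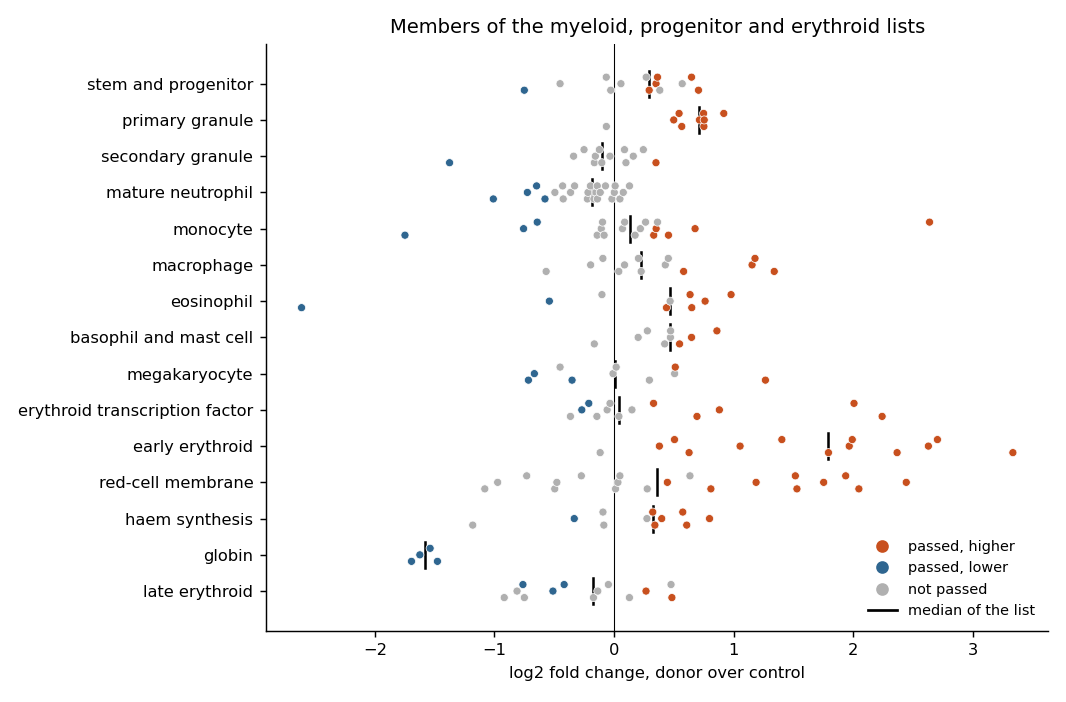
Log2 fold change, donor over control, of each tested member of 15 myeloid, progenitor and erythroid lists, coloured by whether it passed higher, passed lower or did not pass, with bars at the list medians. Early erythroid and primary-granule members lie above 0 except 1 each, and the 4 globins lie between -1.69 and -1.48.

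Most DNA replication and mitosis genes rose, and stem and progenitor genes did in part. Of 13 stem and progenitor genes 5 rose (38.5%) and 1 fell (7.69%), against 22.7% and 23.0% of all genes, with a median of 0.29. The counts were the same without N204, but 2 rose when any one of the donor libraries of N032, N005 and N279 was left out, and 7 without that of N203. In the 10 day-matched libraries 2 rose with the block and 1 without it, and 2 fell in both. Hoxa9, a factor of stem and progenitor cells, was at 3.56 to 6.92 CPM (median 5.28) against 2.26 to 4.91 (median 3.50; log2 0.71 ± 0.15 SE, edgeR adjusted p = 0.00107), and did not pass in females alone (0.50, edgeR adjusted p = 0.0691). Sox4 fell by 0.75 (edgeR adjusted p = 3.01e-05) and is also expressed in B precursors. Of 21 DNA replication genes 20 rose (95.2%, against 22.7% of all genes) and none fell (the same without N204), with a median of 0.39. In males alone 11 rose. In 16 of the 21 the groups did not overlap, against 6.84% of all genes with donor above control. Mcm5, a subunit of the replicative helicase, was at 252.8 to 302.3 CPM (median 282.9) against 150.5 to 214.2 (median 207.2; log2 0.50 ± 0.07 SE, edgeR adjusted p = 2.25e-05), and control N051 was the lowest. Of 20 mitosis genes 14 rose (70%) and 2 fell (10%), against 22.7% and 23.0% of all genes, with a median of 0.28. In males alone 4 rose, and 1 fell when N204 or any one of 6 other libraries was left out. None of the replication or mitosis genes passed a test against a minimum fold of 1.5.

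Genes of JAK-STAT signalling were not raised as a group. Of 11 kinase and STAT genes 2 rose (18.2%) and 5 fell (45.5%), against 22.7% and 23.0% of all genes. The counts were the same without N204, and the median was -0.18. In the 10 day-matched libraries 8 fell with the block and 6 without it. Of 17 target genes 1 rose and 9 fell, with a median of -0.27; 7 fell without N204, and 3 rose without the donor library of N005, as in the 10 day-matched libraries with or without the block. Jak2 was at 144.8 to 192.0 CPM (median 174.1) in donor and 179.2 to 240.3 (median 213.5) in control libraries, overlapping (log2 -0.29 ± 0.07 SE, edgeR adjusted p = 0.00294), and did not pass in males alone (-0.21, edgeR adjusted p = 0.148). Counts per gene do not separate its mutant and normal alleles. Cish, whose promoter is shown above, was at 44.8 to 62.6 CPM (median 50.6) against 24.9 to 49.0 (median 39.5; log2 0.47 ± 0.12 SE, edgeR adjusted p = 0.00307), the one target that rose with all libraries, and it did not pass in females alone (0.14, edgeR adjusted p = 0.281). Socs2, another STAT5 target, was at 1.05 to 2.37 CPM (median 1.58) against 3.34 to 5.90 (median 4.58), without overlap (log2 -1.45 ± 0.21 SE, edgeR adjusted p = 2.86e-05). Cish and Socs2 both belong to the depleted class, at ratios of -2.80 and -3.07. With all depleted genes removed, 7 of the remaining targets fell and none rose. Pim1, a kinase gene induced by STAT5, did not pass (log2 -0.17 ± 0.08 SE, edgeR adjusted p = 0.0899), but passed lower in females alone (-0.29, edgeR adjusted p = 0.0352).
Of 12 tested receptors that signal through JAK2, 3 rose (25%) and 4 fell (33.3%), against 22.7% and 23.0% of all genes. Beside Epor, Csf2rb, the shared beta chain for GM-CSF, interleukin-3 and interleukin-5, was at 311.2 to 450.7 CPM (median 424.9) against 194.2 to 307.8 (median 294.6), without overlap (log2 0.53 ± 0.10 SE, edgeR adjusted p = 3.61e-04). Of 20 interferon-stimulated genes 8 fell and 1 rose (6 and 2 without N204). Among those that fell was Stat2, a component of the interferon signal, at 30.0 to 40.9 CPM (median 34.3) against 47.1 to 66.2 (median 51.7), without overlap.

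Among all retained genes whose mean log2 CPM was 3 or more, the 10 highest log2 fold changes were those of Car1, Ces2g (2.23), Ermap, Upp1 (1.51), Wfdc17 (1.21), Asns (1.05), Ydjc (1.03), Adgrg7 (1.02), Epx and Slfn9 (0.93). The host level is the divisor of the class ratio, so a low host level can place a gene in the retained class. Scaled together, Car1 was at 2.50 CPM in host and 4.05 CPM in CD11b-positive cells, both under its control mean of 13.2 CPM. Wfdc17, at 49.0 and 49.7 CPM, was above its control mean of 21.5 CPM in both. Ces2g, a carboxylesterase, was at 18.3 to 39.95 CPM (median 28.1) against 4.19 to 7.67 (median 5.85), without overlap. Asns, asparagine synthetase, was at 30.0 to 51.5 CPM (median 39.1) against 17.1 to 28.8 (median 18.3), also apart. The 10 lowest were Bank1 (-3.38), H2-DMb2 (-2.90), Gbp9 (-2.28), Ifi213 (-2.03), Sla2 (-2.02), Bmf (-1.89), Card6 (-1.75), Satb1 (-1.75), Ace (-1.75) and Slc26a11 (-1.71), each with every donor library below every control library. Satb1, a chromatin organiser of lymphoid cells and progenitors, was the most abundant of these, at 35.6 to 59.5 CPM (median 47.4) against 125.2 to 193.4 (median 161.4). Bank1, H2-DMb2 and Satb1 are known from lymphoid cells.

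Depleted genes outside the lists that rose most were Saa3 (3.12), Tfr2 (1.72), Grb10 (1.56), Serpina3g (1.48), F11r (1.46), Cttnbp2nl (1.38), Sdsl (1.36), Shank3 (1.31), Muc13 (1.305) and Adamts3 (1.27). Tfr2, transferrin receptor 2, a partner of the erythropoietin receptor, was at 15.9 to 32.8 CPM (median 20.2) against 4.06 to 8.85 (median 6.97), without overlap. Muc13, a transmembrane mucin, was at 30.7 to 58.9 CPM (median 46.5) against 14.5 to 23.1 (median 19.1), without overlap. Host cells of the same mice, scaled with the CD11b libraries, had Saa3 at 12.4, F11r at 11.9 and Cttnbp2nl at 15.5 CPM, near the donor means of 13.97, 9.74 and 14.4 CPM and above the control means of 1.58, 3.41 and 5.48 CPM. Since the host level is the divisor of the class ratio, a high host level places a gene in the depleted class.

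Host cells of the same mice gave a direct test that does not use the controls. With the animal as block, 2078 of 13662 genes were higher in donor than in host cells (15.2%) and 2527 lower (18.5%). Of 13 early erythroid genes 12 were higher and none lower, with a median of 2.02, and the 4 globins were lower, with a median of -1.27. Klf1 stood at 5.75 CPM in the donor and 0.835 ± 0.625 CPM in the host libraries (SD, n = 7; log2 2.72 ± 0.37 SE, edgeR adjusted p = 6.91e-05). Of 9 primary-granule genes 7 were higher, with a median of 0.33, Mpo by 0.30 ± 0.05 SE. Vcan did not pass (log2 0.08 ± 0.07 SE, edgeR adjusted p = 0.404), while C1qa was lower in donor cells (-2.67 ± 0.21 SE). Of 18 monocyte genes none were higher and 12 lower.

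Donor and control cells differ at the CD45 gene Ptprc, which itself was lower (log2 -0.43 ± 0.09 SE, edgeR adjusted p = 0.00102), though not past the threshold in males alone (edgeR adjusted p = 0.0629). Of 86 tested genes starting within 10 Mb of it in the reference, 18 rose and 28 fell, 53.5% against 45.7% of all genes. At least 2-fold apart were 12 of them, against 174 higher and 1052 lower of all 13906 genes. Fcmr of the mature B list was among the 12 (log2 -6.04), and which of these differences go with the CD45 form was not tested. A difference of the donor effect between mice of each sex passed for 1 of 13906 genes (0.00719%), Amd2, at 346 genes with an unadjusted p below 0.05. Within the 7 donor libraries no gene of 12189 followed the final blood chimerism, given without a unit as 0.63 to 5.99, at an adjusted p below 0.05 (edgeR; 242 had an unadjusted p below 0.05).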

How the data were processed

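RNA of CD45-sorted marrow cells was made into strand-specific poly-A libraries, per the labels' protocols. The submitters' processing notes name STAR 2.7.3a, Subread 1.6.2 with featureCounts, RSEM 1.3.3 and the genome build GRCm39. The deposited counts are whole numbers per gene without normalization, for 56941 identifiers, of which 51948 matched a symbol. The deposited TPM values, whose tool was not given in the sources used here, served for alternatives alone. The annotation and strand setting were not given either, so reads of overlapping genes may be shared.

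Counts of the 7 donor and 8 control libraries entered edgeR 4.0.16 (R 4.3.3): a filterByExpr filter, TMM scaling and the quasi-likelihood F-test, adjusted for sex, and Benjamini-Hochberg adjustment at 0.05. The procedure was tested on simulated data. A gene's class compared the CPM, TMM-scaled among themselves, of the CD11b and host libraries, which the test does not use. Shares are percentages of a library's total, and the level of 3 counts covers counting error only. The members and gene lists were chosen with earlier results of these data known. Named genes are list members, a fixed set, the 10 highest and 10 lowest retained genes of mean log2 CPM 3 or more, and the 10 highest depleted genes outside the lists of mean log2 CPM 2 or more; unnamed models and antigen-receptor segments were passed over.

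Alternatives were DESeq2 1.42.0, limma-voom and limma-trend (limma 3.58.1) on TPM plus 1 or 0.1, other scalings and filters, a minimum fold of 1.5, each sex by itself, and omitting libraries one by one. Each library is of 1 mouse. In 5 sex-matched pairs of a donor and a control mouse that share a day of death in the labels, deviations from the group means correlated at 0.162 to 0.283 across genes, and at -0.0527 to 0.204 around the means of each sex within a group. The day was also fitted as a block in these 10 libraries, beside a fit of the same libraries without it.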

Additional observations from a re-analysis of the deposited data

Results flagged for a closer look

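Of 280 sets of values in 1 group, 26 had a library whose gap to the nearest other one was large for the whole range of its group; chance gives this in about 1 in 20 groups (5%).

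The donor library of N032 was high in late erythroid genes, with Hbb-bs at 77.9 CPM, Hbb-bt at 17.9, Slc4a1 at 48.5 and Alas2 at 13.4 CPM, and the globin list at 0.0147% of counts. Control N051 was low in Mpo at 1738 CPM, Csf2rb at 194.2, Mcm2 at 85.7 and Mcm5 at 150.5 CPM and in the megakaryocyte list at 0.0242% of counts, and high in mitochondrial genes at 1.54% and ribosomal protein genes at 5.87%.

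The donor library of N005 was high in Ccr2 at 285.1 CPM, in the plasma cell list at 0.0187% and in the dendritic cell list at 0.0286% of counts. That of N203 was high in Bank1 at 6.47 CPM, Ms4a1 at 1.68, Treml4 at 13.7 CPM and the JAK and STAT list at 0.168% of counts. Wfdc17 was at 114.5 CPM in the donor library of N269, and Tcf7 at 4.52 CPM in that of N014.

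Among controls N288 was high in Pklr at 1.77 CPM, in Stat2 at 66.2 CPM and in interferon-stimulated genes at 0.0684% of counts, N093 in Vcan at 34.1 CPM and N002 in Ydjc at 6.92 CPM.

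The donor difference of Amd2, an adenosylmethionine decarboxylase gene, differed between male and female mice by a log2 of 2.77 (edgeR interaction, adjusted p = 0.0158). It was at 7.34 ± 1.54 CPM in donor cells of male recipients (SD, n = 4) and 0.785 ± 0.155 in those of female recipients (n = 3). Control males had 0.889 ± 0.203 (n = 4) and control females 0.651 ± 0.0987 CPM (n = 4). Whether the difference goes with the recipient's sex or with the graft donors was not tested.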

How the results depend on the processing

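For 103 named genes under up to 31 alternatives, 3081 of 3167 values kept their side of the threshold, 69 no longer passed and 17 newly passed. No value that passed in the main or the alternative fit changed direction. Genes that passed in neither could change sign, as S100a8 did with the day as block (log2 0.13 against -0.17). Leaving out 1 library gave 2828 to 3302 higher and 2902 to 3434 lower genes, 1090 to 1369 and 1047 to 1379 in the retained class, 127 to 162 and 590 to 675 in the depleted class, and 0 to 0 for the slope on chimerism. With the day of death as replicate block (5 pairs), 3108 genes were higher and 3227 lower, against 2549 and 2656 in the same 10 libraries without it. In males alone 1244 were higher and 1783 lower, 354 and 563 of them retained; in females alone 2105 were higher, with 843 higher and 729 lower among retained and 73 higher among depleted genes. Against a minimum fold of 1.5, 152 were higher and 1025 lower, with 28 and 170 retained and 37 higher depleted. TPM plus 1 and plus 0.1 gave 2012 and 2003 lower genes, 773 and 766 of them retained, and 93 and 91 higher depleted genes. Class limits of 0.5 and -1 gave 508 higher and 732 lower retained and 530 higher and 1175 lower depleted genes, by construction with more depleted genes, and classes from CD11b cells of transplanted mice gave 65 higher depleted genes. Donor against host cells without the animal block gave 570 higher and 1358 lower genes, DESeq2 4 sex interactions, and a 20 Mb window around Ptprc 78 calls. Where no other reason is given, the cause was not tested. The median log2 fold change of all genes stayed between -0.047 and 0.053 under every scaling, filter and tool tried. Depth limits single genes near 3 counts, such as Themis and Ncr1 in donor cells.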

Other observations

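Among the genes within 10 Mb of Ptprc that differed at least 2-fold, named after their values were seen, Ctse, an aspartic protease, was at 35.997 ± 6.40 CPM in donor and 116.7 ± 80.6 in control cells (SD, n = 7 and 8; log2 -1.55, edgeR adjusted p = 0.00259), with control libraries from 38.2 to 212.5 CPM and overlapping groups. Cd55, a complement regulator on blood cells, was at 42.7 and 102.8 CPM (-1.27, edgeR adjusted p = 2.11e-05). Cdk18 was higher in donor cells, at 9.98 against 4.12 CPM (1.27, edgeR adjusted p = 5.84e-07). In the direct contrast with host cells Cd55 and Cdk18 passed (log2 -0.29 and 0.37, edgeR adjusted p = 0.00805 and 0.00492), and Ctse did not (-0.61, edgeR adjusted p = 0.128).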
